A study of Drosophila melanogaster with 7 samples.

Results

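The 7 genes described here are listed as genes of peptide or glycoprotein hormones outside the tachykinin and allatostatin C classes. Their levels were followed in sorted progenitor cells of the adult Drosophila melanogaster midgut. They are ITP, Nplp2, Nplp1, CCAP, sNPF, Gpb5 and Gpa2, chosen by name as hormone genes reported in gut, and all 7 were found among the 17481 genes of the deposited table. RNA was sequenced from about 10000 GFP-labelled intestinal stem cells per sample, sorted by flow cytometry from adult midguts at day 2. Ctrl comprised 3 libraries from wild-type flies, and ScOE comprised 4 libraries from flies with Sc overexpression. Sc is the proneural transcription factor encoded by scute (sc). The driver of the GFP label, the driver of Sc and the number of flies per sample are not given in the sources used here. Whether replicates are independent groups of flies is not stated, and the p-values below reflect the scatter among these libraries alone, part of which may be technical.

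Peptide hormones are made as precursors, cut at basic residues by prohormone convertases, often amidated at their C terminus, packed into vesicles and released. In the fly midgut they come from enteroendocrine cells, which arise from intestinal stem cells and can act on the gut itself, on muscle and on distant organs. Ion transport peptide (ITP) belongs to a family of insect hormones that retain water and ions. Crustacean cardioactive peptide (CCAP) acts in ecdysis and on the heart, and short neuropeptide F (sNPF) is known for its role in feeding. Gpa2 and Gpb5 encode the alpha and beta subunits of one heterodimeric glycoprotein hormone, whose receptor in the fly is Lgr1. Nplp1 and Nplp2 encode neuropeptide-like precursors, and the RefSeq gene table also lists Nplp2 under the immune-induced molecule name IM7. Whether the product of Nplp2 acts as a hormone was not tested. Nplp2 is nevertheless counted with the hormone genes in the sums, shares and ranks below.

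The members fell into an abundant pair and a scarce remainder, and only the pair fell. ITP and Nplp2 together made up 98.6% to 99.1% of the summed FPKM of the 7 genes in Ctrl and 83.0% to 90.8% in ScOE. FPKM, fragments scaled to transcript length and library size, allows for length, but the RNA was amplified before library preparation, so levels of different genes compare only roughly. Both abundant genes fell in ScOE, CCAP and sNPF were higher there at a few FPKM, Gpb5 did not pass the test, Nplp1 stayed under 1 FPKM and Gpa2 was listed at 0 in every library. In the background, 39.0% of the 8421 tested genes changed in limma at an adjusted p under 0.05, 17.6% rising and 21.3% falling, and the groups did not overlap for 46.3%. The 4 calls among the 5 members tested are therefore given as values for each gene and not as a property of the set. These are bulk samples, so fewer cells of a type and less RNA per cell cannot be told apart for any gene below.

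**Figure D1:**
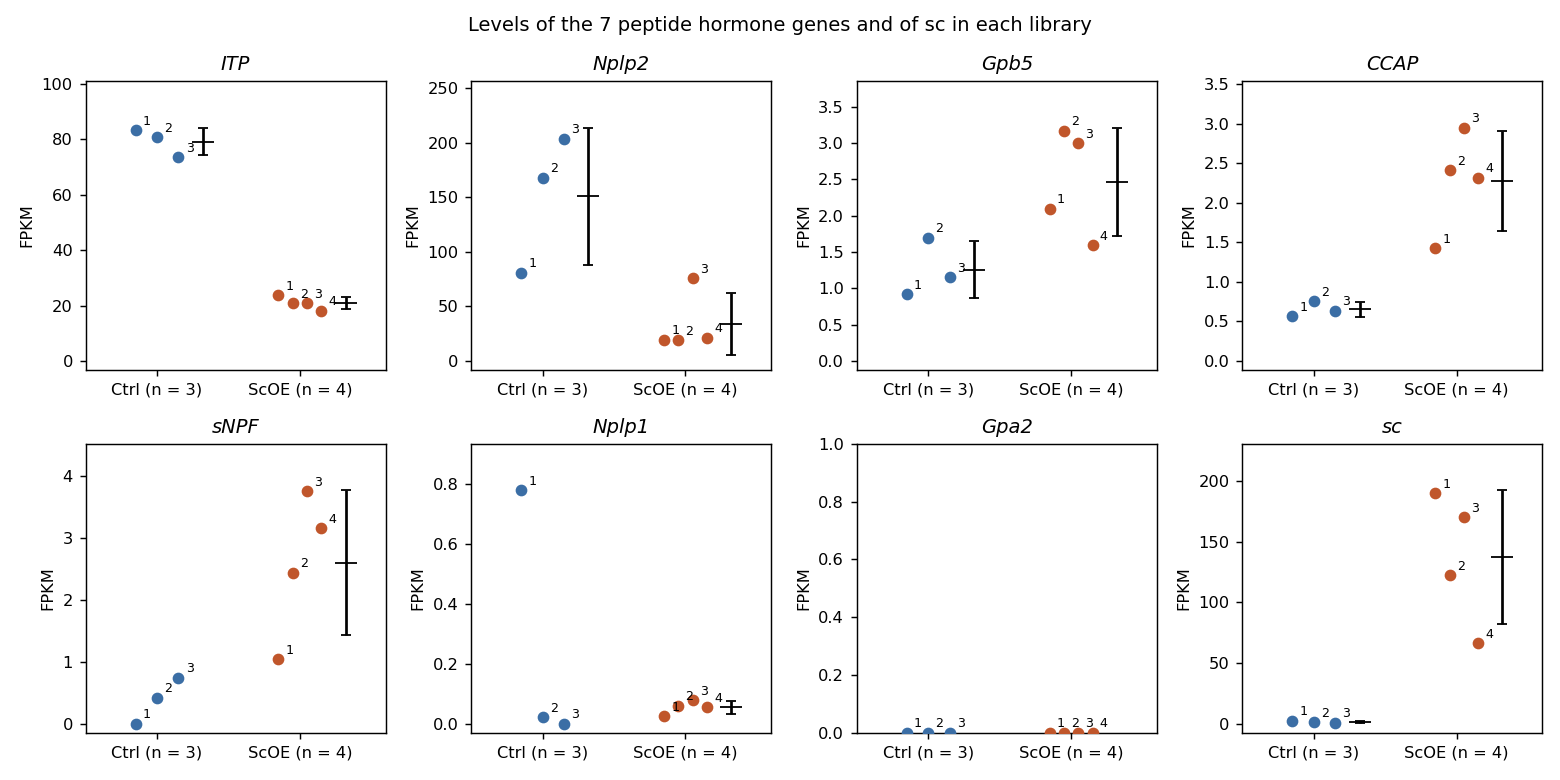
FPKM of each of the 7 hormone genes and of sc in the 3 Ctrl (blue) and 4 ScOE (orange) libraries, on linear axes; small digits are the replicate numbers, and black bars show mean and SD where no library of the group was listed at 0. ITP lies at 73.6 to 83.3 FPKM in Ctrl and 18.1 to 23.6 in ScOE, Nplp2 has 1 high ScOE library, and Gpa2 is at 0 throughout.

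The overexpressed gene and the cell markers were looked at first. The gene sc was at 2.44, 0.978 and 0.886 FPKM in Ctrl 1 to 3 and at 190, 122, 170 and 66.0 FPKM in ScOE 1 to 4, so every ScOE library was far above every Ctrl library. The exact permutation p (two-sided, 35 arrangements) was 0.0286, the smallest that 3 against 4 libraries allow. The opposite-strand gene CG32816 spans sc without sharing an exonic base, and no source used here says whether reads were assigned by strand. The stem cell and enteroblast markers esg, Dl, mira, N, Sox21a and klu were present in all libraries, with a summed level of 550 to 749 FPKM in Ctrl and 474 to 561 in ScOE. Of these 6 markers Sox21a fell and 5 did not pass, where 21.3% of all tested genes fell. With equal FPKM totals Sox21a did not pass either (log2 -0.45, adjusted p = 0.131 in limma). Of the 8 enteroendocrine markers listed, tap, dimm, Poxn and mirr reached 1 FPKM in no Ctrl library and so entered the test through ScOE alone. All 8 rose, where 17.6% of all tested genes rose. Their summed level was 10.6 to 20.5 FPKM in Ctrl and 176 to 234 in ScOE, and the level of pros, the standard marker of these cells, averaged 1.71 ± 0.499 FPKM (SD, 3 Ctrl libraries) and 49.7 ± 7.89 FPKM (SD, 4 ScOE libraries). The part of this shift in the hormone values below was not tested. The summed level of 10 enterocyte markers varied widely within both groups, from 614 to 18962 FPKM in Ctrl and from 441 to 8390 in ScOE. Absolute depth cannot be read from FPKM; the most frequent ratio among low values, a rough guide, gave each Ctrl library 0.448 to 0.603 times the depth of ScOE 3, and 0.859 to 1.04 times for ScOE 1, 2 and 4, so low values are less precise in Ctrl. ScOE 3 stood apart in visceral muscle markers, whose values are given beside Nplp2.

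ITP (FBgn0035023) lies on BDGP6 chromosome 2R, 24537421 to 24558961, plus strand, with 5 annotated transcripts that give amidated ITP and longer ITP-like forms; the gene-level values do not separate them. It was at 83.3, 80.8 and 73.6 FPKM in Ctrl 1 to 3 and at 23.6, 20.8, 20.7 and 18.1 FPKM in ScOE 1 to 4. The groups were widely separated, and the libraries within each were close together. The Ctrl mean was 79.2 ± 5.02 FPKM (SD, n = 3) and the ScOE mean 20.8 ± 2.25 FPKM (SD, n = 4), a level 3.81-fold lower in ScOE. The log2 fold change, ScOE minus Ctrl on log2(FPKM + 1), was -1.88 ± 0.12 (SE), with an adjusted p of 7.14e-05 in limma. The fall kept its size without any 1 library (-1.94 to -1.82). With every library set to the same FPKM total it was -1.04, and the median of all tested genes moved from -0.08 to 0.69 under that scaling; relative to the median, ITP was at -1.80 as deposited and at -1.72 with equal totals.

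The opposite-strand gene CG4622 covers 18880 bases of ITP, but their exons share only 296 of the 4686 exonic bases of ITP. CG4622 was at 2.59 to 5.36 FPKM in Ctrl and 3.51 to 5.87 FPKM in ScOE, well below ITP in each library, and did not pass (log2 0.26, adjusted p = 0.446 in limma), although it passed with equal FPKM totals (log2 0.95, adjusted p = 0.0123). On the other side Nurf-38, a subunit of a chromatin remodelling complex, ends 5 bases from ITP on the opposite strand and was at 175 to 264 FPKM in Ctrl and 110 to 161 in ScOE (log2 -0.57, adjusted p = 0.0535 in limma; log2 0.30 with equal FPKM totals). Nurf-38 passed as falling with library weights (log2 -0.42, adjusted p = 0.0159) and without Ctrl 3 (log2 -0.69, adjusted p = 0.0434).

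ITP ranked lower among the hormone genes in each ScOE library than in any Ctrl library. Among 51 peptide and protein hormone genes it held place 1, 6 and 5 in Ctrl 1 to 3 and place 8, 9, 10 and 10 in ScOE 1 to 4. Its level exceeded that of 91.7% to 92.7% of all genes in the table in Ctrl and of 79.3% to 82.6% in ScOE. The 5 tested genes whose values followed ITP most closely over the 7 libraries, by Pearson r of log2(FPKM + 1), were Pvf2, a ligand of the PDGF and VEGF receptor homologue (r = 0.998), the prohibitin gene Phb2, pst, the microtubule-binding protein gene CLIP-190 and CG7142 (r = 0.996). The 7 points include the difference between the groups, so the direction of genes chosen this way follows from the choice, for ITP as for the members below, and 1001 of the 6390 genes compared had r above 0.9. With equal FPKM totals the log2 fold change of Phb2 moved from -0.92 to -0.05 and did not pass (adjusted p = 0.828). Pvf2 was at 20.4 to 22.6 FPKM in Ctrl and at 1.82 to 3.15 FPKM in ScOE.

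Nplp2 lies on BDGP6 chromosome 3L, 13356376 to 13357223, plus strand, a span of 848 bases with 3 annotated transcripts. The table lists it as FBgn0040813 and the annotation as FBgn0287423, so it was matched by symbol. It was at 80.9, 168 and 203 FPKM in Ctrl 1 to 3 and at 19.3, 18.7, 75.7 and 21.4 FPKM in ScOE 1 to 4. The groups did not overlap, but ScOE 3 came close to Ctrl 1, while the other 3 ScOE libraries lay within a few FPKM of each other. The Ctrl mean was 151 ± 63.0 FPKM (SD, n = 3) and the ScOE mean 33.8 ± 28.0 FPKM (SD, n = 4). The log2 fold change was -2.30 ± 0.55 (SE), with an adjusted p of 0.0149 in limma, a larger error than that of ITP. Without Ctrl 2 the log2 fold change was -2.17 and no longer passed (adjusted p = 0.0517), and without ScOE 3 it was -2.77 (adjusted p = 0.00273). With equal FPKM totals it was -1.44 (adjusted p = 0.0402).

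ScOE 3 also differed from all other libraries in the visceral muscle markers. The summed level of the 9 markers was 133 FPKM in ScOE 3, against 7.46 to 10.6 FPKM in the other ScOE libraries and 9.32 to 22.2 FPKM in Ctrl. Of the single markers the actin gene Act57B reached 38.4 FPKM in ScOE 3 with a maximum of 2.62 FPKM elsewhere, and the myosin light chain gene Mlc2 reached 35.5 FPKM with a maximum of 2.50 FPKM elsewhere. The part of these markers in the Nplp2 value of that library was not tested. All 10 fat body markers were under 1 FPKM in every library, with summed levels of 1.11 to 1.74 FPKM in Ctrl and 0.574 to 2.37 in ScOE. Of the 11 hemocyte markers 7 were under 1 FPKM in every library, and the summed level was 7.69 to 14.1 FPKM in Ctrl and 7.30 to 10.8 in ScOE.

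**Figure D2:**
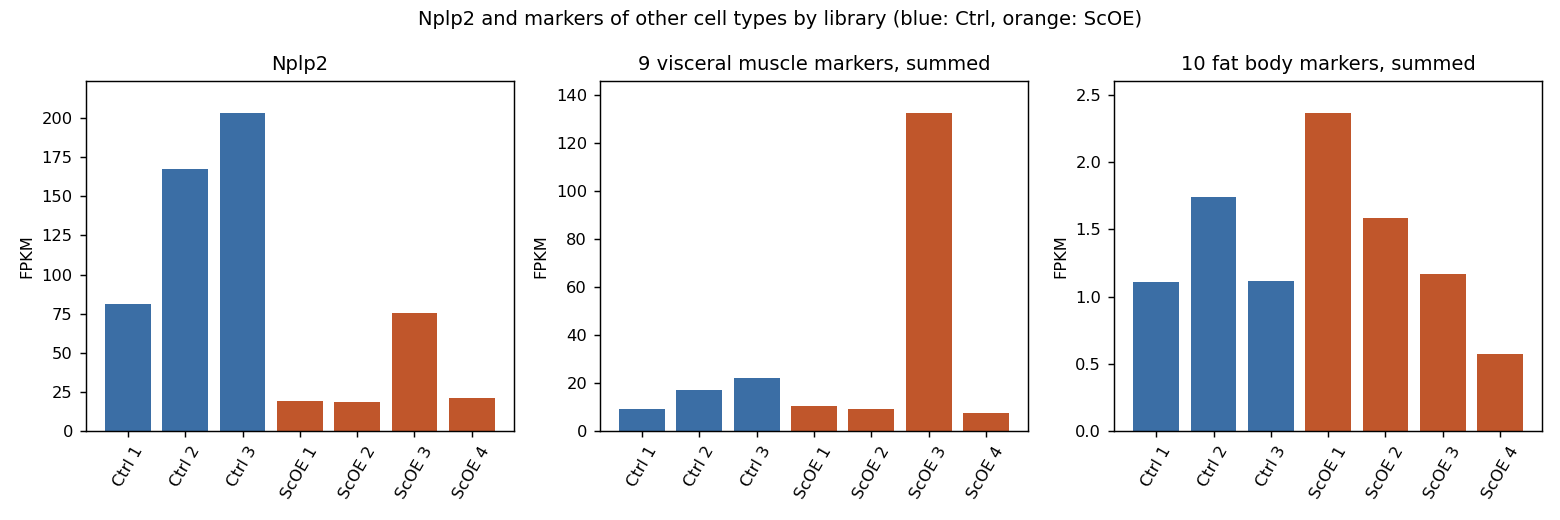
Bars give FPKM per library for Nplp2, for 9 visceral muscle markers summed and for 10 fat body markers summed, with Ctrl in blue and ScOE in orange and each axis starting at 0. ScOE 3 has the highest Nplp2 value of the ScOE libraries (75.7 FPKM) and the highest muscle sum of all libraries (133 FPKM), while the fat body sums stay at or below 2.37 FPKM.

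The genes most like Nplp2 over the 7 libraries were CG12788 (r = 0.975), CG8920, the glutathione S-transferase gene GstT3, the non-coding RNA CR44757 and CG18619 (r = 0.956). CG8920 did not pass (log2 -0.25, adjusted p = 0.0966 in limma), and with equal FPKM totals the fold changes of all but CR44757 turned positive. Like Nplp2, all 5 had their highest ScOE value in ScOE 3, for example CG12788 at 6.06 FPKM and GstT3 at 27.9 FPKM. CR44757 was at 6.18 to 12.1 FPKM in Ctrl and 1.39 to 2.76 FPKM in ScOE (log2 -1.94 ± 0.26). Only 55 of 6390 genes had r above 0.9 with Nplp2. The ratio of ITP to Nplp2 within a library ran from 0.362 to 1.03 in Ctrl and from 0.274 to 1.22 in ScOE, so the 2 falling genes did not keep a fixed proportion.

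CCAP (FBgn0039007; BDGP6 chromosome 3R, 22700582 to 22702084, minus strand) was at 0.563, 0.756 and 0.633 FPKM in Ctrl 1 to 3 and at 1.43, 2.41, 2.95 and 2.31 FPKM in ScOE 1 to 4. All ScOE libraries were above all Ctrl libraries, with ScOE 1 the lowest. Means were 0.651 ± 0.0977 FPKM (SD, n = 3) and 2.27 ± 0.631 FPKM (SD, n = 4), a ratio of 3.50. The log2 fold change on log2(FPKM + 1), which understates the change of low genes, was 0.97 ± 0.19 (SE), with an adjusted p of 0.00636 in limma. No Ctrl library reached 1 FPKM, so CCAP entered the test through the ScOE libraries alone; without any filter on low values the adjusted p was 0.0118, where 21.8% of 14782 genes changed. Leaving out any 1 library gave 0.87 to 1.11, each passing. With quantile normalization the log2 fold change was 0.53 and did not pass (adjusted p = 0.0604). The opposite-strand gene CG6972 shares 78 exonic bases with CCAP and was also higher in ScOE, at 0 to 0.350 FPKM in Ctrl and 0.487 to 1.46 FPKM in ScOE (log2 0.57, adjusted p = 0.0978 without a filter). The genes most like CCAP were ste14 (r = 0.986), the RNA helicase gene me31B, CG43207, the synaptotagmin gene Sytalpha and CG7381 (r = 0.977), and 298 of 6391 genes had r above 0.9.

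sNPF (FBgn0032840; BDGP6 chromosome 2L, 20027915 to 20056373, plus strand) was listed at 0 in Ctrl 1 and was at 0.415 and 0.744 FPKM in Ctrl 2 and 3. In ScOE 1 to 4 it was at 1.04, 2.44, 3.76 and 3.16 FPKM, above every Ctrl library, with ScOE 1 again the lowest and ScOE 3 again the highest. The log2 fold change was 1.34 ± 0.33 (SE), with an adjusted p of 0.0165 in limma. This gene too reached 1 FPKM in no Ctrl library and passed the filter through ScOE alone; without the filter the adjusted p was 0.0338. Leaving out any 1 library gave 1.13 to 1.59, with an adjusted p of up to 0.0475. Its size depended on the pseudocount, from 0.48 with 5 FPKM to 2.80 with 0.1 FPKM, and with quantile normalization it was 1.02 and did not pass (adjusted p = 0.0523). The closest genes in pattern were Scp2, a calcium-binding protein gene (r = 0.983), Traf-like, Fancl, the gut hormone gene Dh31 (r = 0.974) and PGAP3, and 132 of 6391 genes had r above 0.9. Dh31, chosen for its likeness to sNPF over these libraries, had the same order in ScOE, with 18.0, 50.2, 81.6 and 52.2 FPKM in ScOE 1 to 4. Tk (139, 219, 364 and 328 FPKM) and NPF (204, 474, 1310 and 958 FPKM) had that order too. AstA, AstC, CCHa1, CCHa2, Orcokinin and Mip did not. CCAP and sNPF stayed near each other in level, and their ratio within a ScOE library ran from 0.733 to 1.37.

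Gpb5 (FBgn0063368; BDGP6 chromosome 2L, 23311700 to 23312464, plus strand) was at 0.921, 1.70 and 1.15 FPKM in Ctrl 1 to 3 and at 2.09, 3.17, 3.00 and 1.59 FPKM in ScOE 1 to 4. The groups overlapped, since ScOE 4 was below Ctrl 2. The log2 fold change was 0.61 ± 0.22 (SE), with a 95% interval of 0.10 to 1.12 and an adjusted p of 0.0626 in limma, so Gpb5 did not pass. It passed without ScOE 4 (log2 0.74, adjusted p = 0.0307) and with the replicate block (log2 0.74, adjusted p = 0.0311). It also passed with upper quartile scaling (log2 0.71, adjusted p = 0.0393), after setting the totals equal (log2 1.14, adjusted p = 0.00811) and with library weights (log2 0.52, adjusted p = 0.0258). It was smaller with quantile normalization (log2 0.27, adjusted p = 0.383) and without Ctrl 1 (log2 0.50, adjusted p = 0.153). The annotated gene Tim23 adjoins it on the opposite strand and was not analysed here. In pattern Gpb5 was closest to sut1 (r = 0.965), the mucin-related gene Mur29B, the small GTPase gene Rab2, the protease gene Try29F and the cytochrome P450 gene Cyp4e2 (r = 0.942), and 36 of 6391 genes had r above 0.9.

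Gpa2, the gene of the partner subunit (FBgn0261386), was listed at 0 in all 7 libraries. The annotation places it on an unmapped scaffold. In all, 2699 genes of the table were at 0 in every library, and a listed 0 can be a failed estimate. A comparison of the subunits is therefore not possible here. Nplp1 (FBgn0035092; BDGP6 chromosome 2R, 25032377 to 25040377, plus strand) was at 0.779 and 0.0220 FPKM in Ctrl 1 and 2, was listed at 0 in Ctrl 3, and was at 0.0253 to 0.0782 FPKM in ScOE. It did not reach the filter. In the fit without a filter the log2 fold change was -0.21 ± 0.20 (SE), with an adjusted p of 0.523 in limma. Its only value above 0.1 FPKM came from Ctrl 1.

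The order of the levels was partly the same in both groups. Mean FPKM in Ctrl ran from Nplp2 (151) and ITP (79.2) to Gpb5 (1.26), CCAP (0.651), sNPF, Nplp1 and Gpa2. The ranges of Nplp2 and ITP overlapped, those of ITP and Gpb5 and of Gpb5 and CCAP were separate, and those from CCAP through sNPF to Nplp1 overlapped one another in turn. In ScOE Nplp2 (33.8) and ITP (20.8) again led, with overlapping ranges. They were followed by sNPF (2.60), Gpb5 (2.46) and CCAP (2.27), whose ranges overlapped one another, and then by Nplp1. The gap between the abundant and the scarce genes thus remained in ScOE but was smaller: ITP was well above all 3 in every library.

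The 9 other gut hormone genes, Tk, NPF, Dh31, AstA, AstC, CCHa1, CCHa2, Orcokinin and Mip, were listed for comparison. Of these, 7 rose, none fell and NPF and Mip did not pass, where 17.6% of all tested genes rose. The median log2 fold change of the 9 genes was 3.77, against -0.08 over all tested genes. CCHa1 rose from 16.6 ± 9.88 to 909 ± 467 FPKM (log2 5.74 ± 0.55), and Tk had a log2 fold change of 3.81 ± 0.40. Their summed level was 160, 792 and 1230 FPKM in Ctrl 1 to 3 and 3504, 7283, 9825 and 4615 FPKM in ScOE 1 to 4. The 7 genes described here are called minor peptide genes as a label only, which does not describe their level in Ctrl. They summed to 166, 251 and 279 FPKM in Ctrl and to 47.5, 47.6, 106 and 46.6 FPKM in ScOE. They accounted for 51.0%, 24.1% and 18.5% of the sum over all 16 genes in Ctrl and for 1.34%, 0.649%, 1.07% and 1.00% in ScOE.

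**Figure D3:**
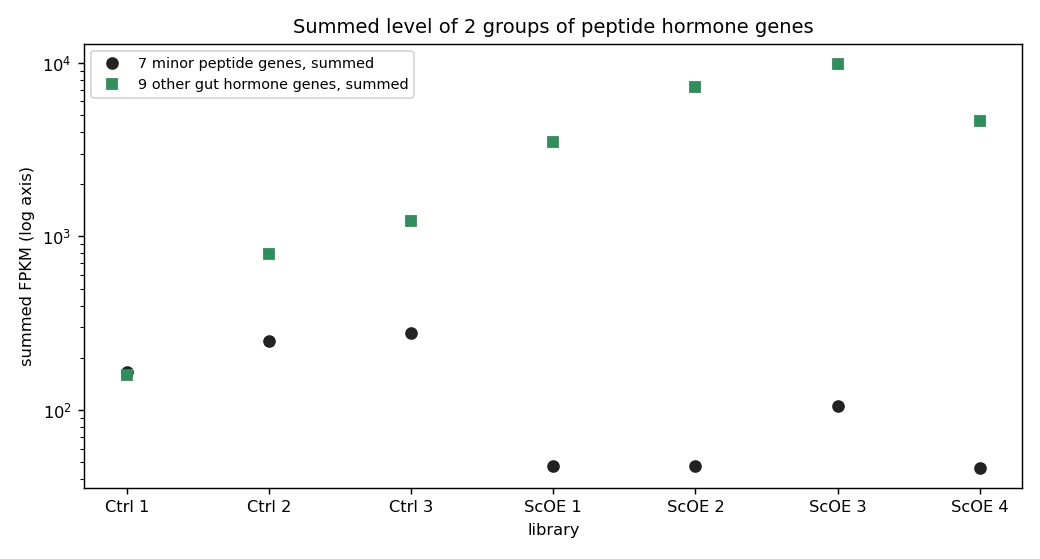
Summed FPKM per library, on a log axis, for the 7 minor peptide genes (black circles) and for 9 other gut hormone genes (green squares). The sums nearly coincide in Ctrl 1, at 166 and 160 FPKM, and lie furthest apart in ScOE 2, at 47.6 and 7283 FPKM.

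Receptors of these hormones were scarce in the sorted cells. The receptor genes listed were CCAP-R, sNPF-R, Lgr1, Gyc76C, a receptor guanylate cyclase reported to respond to peptides of Nplp1 and ITP, and TkR99D, a tachykinin receptor also reported to bind a form of ITP. Of these 5 only sNPF-R reached the filter, at 0.0687, 0.276 and 1.19 FPKM in Ctrl 1 to 3 and 1.22, 2.34, 2.29 and 1.09 FPKM in ScOE 1 to 4. The groups overlapped, and sNPF-R did not pass (log2 0.89 ± 0.30, adjusted p = 0.0532 in limma), although it did in 8 of the 19 alternatives that gave a value, among them leaving out Ctrl 3 (log2 1.19, adjusted p = 0.0176). CCAP-R was at 0.0172 to 0.138 FPKM in Ctrl and 0.186 to 0.277 FPKM in ScOE. In the fit without a filter its log2 fold change was 0.22 (adjusted p = 0.0264 in limma), where 21.8% of 14782 genes changed. No other listed receptor passed in that fit, and values this low are less precise in Ctrl. The highest value of Lgr1 was 0.151 FPKM. Gyc76C and TkR99D stayed at or below 0.0617 and 0.0205 FPKM.

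Genes for the processing of hormone precursors mostly rose. Of 8 listed genes 6 rose, none fell and 2, Pal1 and Fur2, did not pass, where 17.6% of all tested genes rose. The list's median log2 value was 2.39. The convertase gene amon was at 0.568, 1.92 and 2.47 FPKM in Ctrl 1 to 3 and at 14.6, 26.0, 29.1 and 23.5 FPKM in ScOE 1 to 4 (log2 3.23 ± 0.33). The furin gene Fur1 rose from 1.19 ± 0.800 to 12.6 ± 2.40 FPKM (log2 2.69 ± 0.27). Summed over the 8 genes, the level was 132 to 159 FPKM in Ctrl and 640 to 1376 in ScOE.

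**Figure D4:**
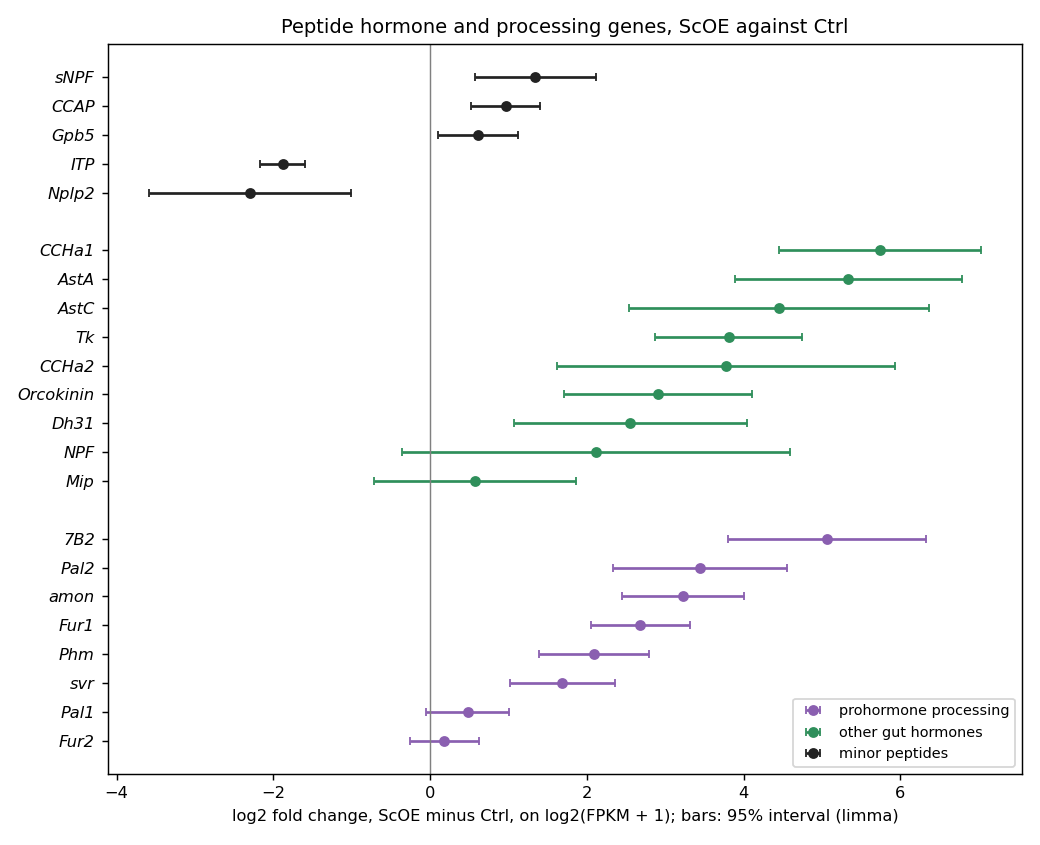
Log2 fold changes, ScOE minus Ctrl on log2(FPKM + 1), with 95% intervals from limma, for the 5 tested minor peptide genes (black), 9 other gut hormone genes (green) and 8 processing genes (purple). ITP (-1.88) and Nplp2 (-2.30) are the only genes shown that lie below 0.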

How the data were processed

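The authors' deposited table gives FPKM for 17481 genes for Ctrl (3 libraries) and ScOE (4). Per the labels' protocols, RNA was amplified before library preparation, which can distort the level of one transcript against another. The tools, per the submitters' processing notes, were TopHat2 2.0.10 and Cufflinks 2.2.1 and the build BDGP6; strand setting, annotation release and any further scaling are not given in the sources used here. Values were used as deposited and tested with limma 3.58.1 (R 4.3.3) after adding 1 FPKM and taking log2. The two-sided moderated test allowed the variance to follow the mean level. It covered the 8421 genes that reached 1 FPKM in 3 or more libraries, with Benjamini-Hochberg adjustment across them and a threshold of 0.05. The fit was run on 10 simulated tables in which 200 genes with a Ctrl mean of at least 5 FPKM were changed. On average it recovered 61.5% of 2-fold and 88.1% of 4-fold changes, and 5.18% of its calls were false. CCAP, sNPF and Gpb5 lie below that level in Ctrl, so the simulation does not cover them. Noise was drawn independently for each library, and far fewer genes were changed than the 39.0% called in the real data. The rates may therefore not hold for these data.

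The members, lists and tests were chosen with earlier results of these data known. Named genes were the members, sc, for each tested member the 5 genes of highest Pearson r among those with a mean of at least 5 FPKM, all receptors, and from each other list up to 2 rising and 2 falling genes of smallest adjusted p. Genes within 100 bases of a member were added after the values were seen. Further list genes are named outside this rule, among them Ilp2, Crz, Dh44, repo, serp, trh, NimC1, Sr-CI, Act57B and Mlc2. They are a selection made with their values known. The 14 lists had 137 entries, all matched, 4 of them by gene ID. Coordinates and transcripts are from the Ensembl annotation of BDGP6, 1-based. The permutation test used scipy 1.17.1, and figures matplotlib 3.10.9. Alternatives covered pseudocount, filter, scaling, moderation, library weights, a replicate block and each library left out.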

Additional observations from a re-analysis of the deposited data

Results flagged for a closer look

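Of the 59 genes looked at by library, only those whose highest ScOE value reached 1 FPKM had a gap test. The test was at the 95% level (critical value 0.829), where chance alone gives about 1 in 20 groups. In 5 genes 1 ScOE library stood apart from the other 3. Nplp2 was at 75.7 FPKM in ScOE 3, high against the others, with a gap of 0.953 of the range. CG12788 at 6.06 FPKM and CR44757 at 2.76 FPKM were also high in ScOE 3; both were named because they resembled Nplp2 over the same libraries, so they are not separate evidence. The gene pst, named only because its values followed those of ITP, was low in ScOE 4, at 121 FPKM. The hormone gene Ptth was high in ScOE 1, at 2.70 FPKM.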

How the results depend on the processing

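All 5 tested members kept their direction under every alternative that gave a value; a minimum of 5 FPKM left CCAP, sNPF and Gpb5 untested. ITP kept its call in all 20 alternatives. Calls changed as follows. CCAP (log2 0.53) and sNPF (1.02) did not pass with quantile normalization. Gpb5 passed with upper quartile scaling (0.71), equal FPKM totals (1.14), library weights (0.52) and the replicate block (0.74). With each library left out in turn Gpb5 ranged from 0.50 to 0.74 and passed without ScOE 4. Nplp2 ranged from -2.77 to -2.03, its call lost without Ctrl 2. Libraries of the same number had correlations of deviations of 0.52, -0.04 and 0.08 for numbers 1 to 3. Across numbers, Ctrl 3 was at 0.46 with ScOE 4 and at -0.60 with ScOE 1. Libraries of the 2 groups thus varied together in part, but not by replicate number throughout. The block moved the genes called from 3280 to 2540. It lowered the SE of sNPF (0.33 to 0.17), Nplp2 (0.55 to 0.35) and Gpb5 (0.22 to 0.16), but not that of ITP (0.12 to 0.13) or CCAP (0.19 to 0.20). ScOE 4, alone in its block, adds nothing to that fit. Equal FPKM totals gave 4453 rising and 279 falling genes in place of 1484 and 1796 (94.1% rising against 45.2%; 60.5% with upper quartile scaling). Under equal totals the log2 fold changes of CG12788 (0.23), CG8920 (0.53), GstT3 (0.047), CG18619 (0.17), Myo31DF (0.0076), srp (0.23) and Nurf-38 (0.30) turned positive. The deposited FPKM totals ran from 1924963 to 2614335 in Ctrl libraries and from 1059344 to 1382537 in ScOE libraries. Setting them equal therefore raises ScOE values against Ctrl values. The cause of the difference in totals was not tested, nor was that of the other changes of call. Unknown absolute depth limits the genes under about 1 FPKM most.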

Other observations

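Of 35 further neuropeptide and protein hormone genes, 26 were under 1 FPKM in every library and 6 were tested. Of those 6, none rose, 2 fell and 4 did not pass, where 21.3% of all tested genes fell. In the fit without a filter, Ilp2, an insulin-like peptide gene, was higher in ScOE (0 to 0.139 FPKM in Ctrl, 0.476 to 0.780 in ScOE, adjusted p = 0.00412 in limma). Crz, the corazonin gene, was listed at 0 in Ctrl and was at 0.0643 to 0.248 FPKM in ScOE (adjusted p = 0.0322 in limma). Both genes were picked from the 26 under 1 FPKM, and 21.8% of 14782 genes changed in that fit. By the rough guide above, Ctrl libraries had 0.448 to 0.603 times the depth of ScOE 3, so values this low are less precise there. Ptth, which encodes prothoracicotropic hormone, the brain signal for ecdysone production in larvae, was at 19.8, 14.3 and 10.3 FPKM in Ctrl 1 to 3 and at 2.70, 0.298, 0.247 and 0.0720 FPKM in ScOE 1 to 4 (log2 -3.27 ± 0.45, adjusted p = 0.0015 in limma). The tachykinin-related gene natalisin was at 13.0, 5.13 and 4.28 FPKM in Ctrl and at 1.99, 2.02, 1.47 and 0.771 FPKM in ScOE (log2 -1.61 ± 0.37, adjusted p = 0.012); after setting totals equal it did not pass (log2 -0.98, adjusted p = 0.0535). Dh44, a diuretic hormone gene, spread within both groups, from 0.0793 to 32.2 FPKM in Ctrl and from 0.131 to 18.9 FPKM in ScOE, with its lowest value in the library numbered 1 of each group.

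Among other marker lists, the neuron and glia list had 6 tested genes, of which 5 rose, where 17.6% of all tested genes rose. The remaining gene moody, a glial receptor gene, fell (log2 -1.13 ± 0.19), a change that did not pass with equal FPKM totals (log2 -0.27, adjusted p = 0.371). The glial marker repo, under 1 FPKM throughout, was higher in ScOE, at 0.0260 to 0.0852 FPKM in Ctrl and 0.122 to 0.178 in ScOE (adjusted p = 0.0342 without a filter). Syt1, a vesicle release gene, rose by log2 2.65 ± 0.16; Syt1, brp and futsch reached 1 FPKM in no Ctrl library and entered the test through ScOE alone. The fibroblast growth factor receptor gene btl, listed for trachea, fell from 3.97 ± 0.704 to 0.954 ± 0.367 FPKM (SD, n = 3 and 4), while the other 4 trachea markers stayed under 1 FPKM. Of these, serp was higher in ScOE, at 0.0953 to 0.190 FPKM in Ctrl and 0.348 to 0.778 in ScOE (adjusted p = 0.0169 without a filter), and trh was at 0.0669 to 0.113 and 0.122 to 0.249 FPKM (adjusted p = 0.0805). The enterocyte list had 3 falling genes of 9 tested, where 21.3% of all tested genes fell. They were the protease gene Jon99Fii (log2 -5.14 ± 0.79), the myosin gene Myo31DF (log2 -0.85 ± 0.14) and Amy-d. Amy-d had overlapping groups and an adjusted p of 0.0486 in limma, and Myo31DF turned positive with equal FPKM totals. Of the 2 hemocyte markers tested, srp fell (log2 -0.48 ± 0.14), a call kept in 11 of 20 alternatives and positive with equal FPKM totals, and Sr-CI did not pass (log2 0.74, adjusted p = 0.0661 in limma). NimC1, below the filter, was at 0.507 to 1.15 FPKM in Ctrl and 0.0909 to 0.183 in ScOE (adjusted p = 0.0134 without a filter). All 5 Malpighian tubule markers were under 1 FPKM in every library.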
